A study of Bos taurus with 22 samples.

Results

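Growth hormone receptor signalling was followed in subcutaneous fat of Holstein heifers through 8 genes. They are the receptor GHR, the kinase JAK2, the transcription factors STAT5A and STAT5B, and the feedback inhibitors SOCS1, SOCS2, SOCS3 and CISH. Members were all probe sets whose single gene symbol in the array annotation was one of these names. This gave 5 of the 9155 genes named on the array, through 16 of 24016 bovine probe sets: 11 for GHR, 2 for SOCS3, and 1 each for STAT5B, SOCS2 and CISH. No probe set carried JAK2, STAT5A or SOCS1 as its single symbol, so these 3 genes were not analysed here. The pathway was therefore seen through its receptor, 1 transcription factor and 3 of its inhibitors.

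Growth hormone binds a receptor pair at the cell surface, and JAK2 bound to the receptor's inner part then phosphorylates the receptor and STAT5. STAT5 enters the nucleus and turns on genes that include SOCS2, CISH and, in liver above all, IGF1. The SOCS proteins and CISH bind the activated receptor or kinase through an SH2 domain and recruit a ubiquitin ligase built on elongins and a cullin, which closes the loop. In fat, growth hormone opposes insulin and favours the release of stored lipid. In dairy cows the blood level of the hormone rises around calving, when liver GHR is known to fall.

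The study sampled dorsal subcutaneous white fat of 11 first-calving heifers, aged 24 to 28 months and raised on 1 farm, 30 days before calving (prepartum, 11 arrays) and 14 days after it (postpartum, 11 arrays). Both groups shared breed, parity and farm, without dietary treatment, and the question was how lactation changed adipose transcripts. Pregnancy stage, lactation and the postpartum ration change together between the groups and cannot be told apart. Values are linear array signals that the authors had scaled to the same trimmed mean on every array. Arrays have no sequencing depth, and precision here depends on the 11 paired cows and the spread between them.

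The tissue label was checked on adipocyte markers. ADIPOQ, which encodes adiponectin, lay at or above the 95.2th percentile of its array on all 22 arrays, and FABP4, the fatty acid carrier of adipocytes, at or above the 99.9th. Most skeletal muscle markers were high on 4 arrays. Of 15 kept markers, 13 stood above each of the other 18 arrays in the postpartum array of cow 384 and in the prepartum array labelled cow 387. The prepartum array of cow 384 and the postpartum array of cow 386 had 11 such markers each. CKM, the muscle creatine kinase, and MYH7 were above the others on none of the 4, and CKM was below its median of 721 on 3 of them. ACTA1, the muscle actin, had a signal of 9240 in the postpartum array of cow 384 and 7696 in the prepartum array labelled cow 387. It had a signal of 3437 in the prepartum array of cow 384, 1696 in the postpartum array of cow 386 and at most 180 in the other 18. After subtraction of group means, the arrays labelled cow 387 correlated at -0.09, against 0.18 to 0.43 within the other 10 cows, and the prepartum one reached 0.64 with a postpartum array of another cow. Cows 330, 341 and 384 also had a higher value with another cow than with themselves, so that 7 of 11 pairs matched best. Results that rest on cows 384 and 387 are given with and without them.

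The receptor was measured by 1 bright probe set out of 11. For that GHR probe set the lowest, median and highest signal were 139, 201 and 444 prepartum and 108, 296 and 573 postpartum. It stood above the array median on all 22 arrays, and its mean level lay at the 84.7th percentile of all bovine probe sets. The 11 GHR probe sets rest on 7 sequence records of the gene. The other 10 had signals from 0.11 to 20.6 and never reached an array median (39.9 to 47.4). They lay below the filter on low values, which kept the 14410 probe sets with a mean log2 level at or above the 40th percentile. Which part of the transcript each one reads is not given in the sources used here. Another 2 probe sets were annotated to both FBXO4 and GHR and were not counted as members. Their median signals were 137 prepartum and 135 postpartum for the first, and 519 and 485 for the second.

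**Figure D1:**
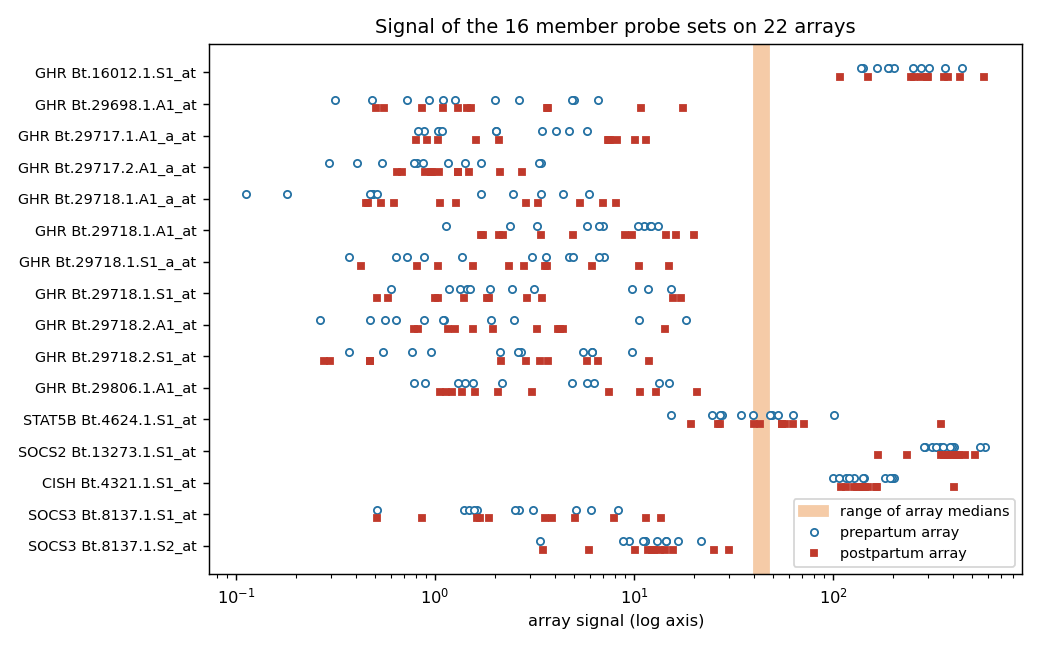
Signal of each of the 16 member probe sets (rows) on the 22 arrays, on a log axis, with prepartum arrays as open circles, postpartum arrays as squares and the range of the array medians as a band. The top GHR row, SOCS2 and CISH lie above the band on every array, STAT5B straddles it, and the 12 other probe sets lie below it.

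Of the 16 probe sets, 4 passed the filter: 1 each for GHR, STAT5B, SOCS2 and CISH. None of these 4 passed limma's moderated paired test at an adjusted p of 0.05, where 3.43% of all kept probe sets did (1.44% higher, 1.98% lower), and none had an unadjusted p under 0.05, where 19.8% did. An ordinary paired test also called none of the 4, nor did limma without cows 384 and 387, where 7.43% of kept probe sets passed. The measured changes were small against the spread between cows. As this is whole tissue, fewer cells of a type and less RNA per cell cannot be told apart in any of these values.

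GHR was higher after calving in 8 of 11 cows, but the change did not pass the test. On the log2(signal + 7.78) scale used for all changes, its level was 7.87 ± 0.53 prepartum and 8.18 ± 0.65 postpartum (SD, n = 11). The change of 0.30 (SE 0.20, limma adjusted p = 0.445) is a fold of 1.23, and the 95% interval of the fold ran from 0.91 to 1.66. At least 8 of 11 cows in 1 direction was common, and 40.9% of kept probe sets showed it.

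Single cows differed in direction. The signal went from 165 to 359 in cow 331, from 139 to 277 in cow 347, from 189 to 377 in cow 384 and from 253 to 434 in cow 330. It went from 275 to 108 in cow 360 and from 444 to 255 in cow 386, the cow with the highest prepartum value. Both groups overlapped over most of their range. The SD of the change between cows, 0.78, lay at the 93.1th percentile of kept probe sets, and at the 97.1th without cows 384 and 387 (SD 0.82, n = 9). Without those 2 cows the change was 0.19 (SE 0.22, limma adjusted p = 0.653), with 6 of 9 cows higher. With cow 386 left out as well, it was 0.31 (limma adjusted p = 0.429). Without cow 360 alone it was 0.46 (limma adjusted p = 0.182). The 2 array sets, which the titles tell apart by a code of unstated meaning, gave near-equal means for GHR, 0.29 (SD 0.96, n = 5) and 0.31 (SD 0.69, n = 6).

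The 10 dim GHR probe sets and the 2 for SOCS3 could be tested only with no filter, and none of the 12 passed there (limma adjusted p from 0.288 to 0.996), where 1.58% of all probe sets did. One of the GHR probe sets had an unadjusted p of 0.035 and a change of 0.31. Its signals ran from 0.82 to 5.77 prepartum and from 0.80 to 11.5 postpartum, with a mean level at the 7.75th percentile. The probe sets annotated to both FBXO4 and GHR had changes of -0.16 (limma adjusted p = 0.522) and -0.11 (limma adjusted p = 0.432), opposite in sign to the bright GHR probe set.

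STAT5B, which carries the signal to the nucleus, had the largest mean change of the 4 and the largest change in a single cow. Its signals ran from 15.4 through a median of 39.7 to 101 prepartum and from 19.2 through 55.2 to 349 postpartum. The level was 5.57 ± 0.62 prepartum and 5.92 ± 0.98 postpartum (SD, n = 11), a change of 0.35 (SE 0.23, limma adjusted p = 0.42) with 8 of 11 cows higher. The fold was 1.28, with a 95% interval from 0.91 to 1.79. The probe set was not bright, above the array median on 11 of 22 arrays. STAT5A, a close paralogue that lies beside STAT5B in the genome, could share sequence with it, so the value is uncertain as a measure of STAT5B alone.

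That mean rested largely on 1 array: without cow 384 the change was 0.12 (SE 0.13, limma adjusted p = 0.628). In cow 384 the STAT5B signal went from 48.1 to 349, and the next highest value on any array, 101, was the prepartum array labelled cow 387. These are the 2 arrays with the highest skeletal muscle score, the median over 15 muscle markers of the log2 level relative to each gene's mean: 7.13 and 6.33, against at most 3.41 elsewhere. With the muscle score as a covariate, chosen after the data were seen, the change was 0.30 (SE 0.17, limma adjusted p = 0.334). Without cows 384 and 387 the change was 0.22 (SE 0.11, limma adjusted p = 0.254), 7 of 9 cows were higher, and the SD of the change moved from 0.86 (95.2th percentile) to 0.27 (34.3th percentile). Postpartum minus prepartum changes in the array sets were 0.21 (SD 0.35, n = 5) and 0.47 (SD 1.16, n = 6).

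**Figure D2:**
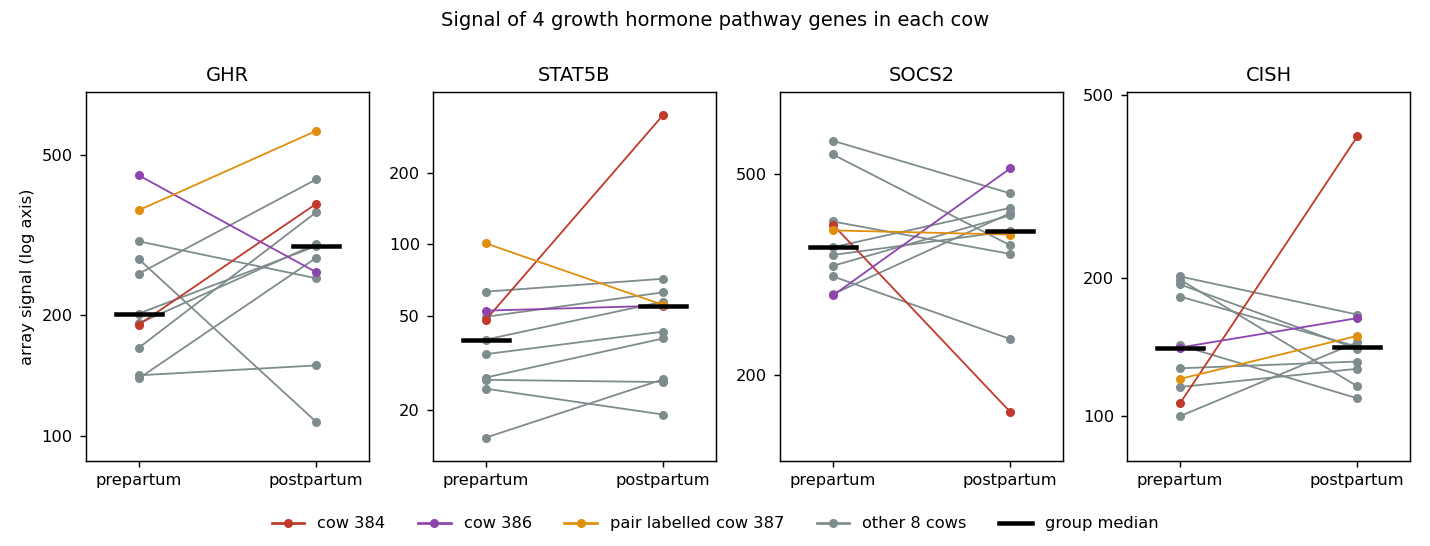
Array signal (log axis) of GHR, STAT5B, SOCS2 and CISH before and after calving, with 1 line per cow and a black bar at the group median. GHR lines cross widely in both directions, and in cow 384 (red) STAT5B rises to 349, CISH rises to 406 and SOCS2 drops to 169.

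SOCS2, a feedback inhibitor whose transcript is a common readout of growth hormone action, had similar medians at both times. Its signals were 287, 358 and 583 (lowest, median, highest) prepartum and 169, 386 and 513 postpartum. The level was 8.58 ± 0.33 prepartum and 8.52 ± 0.45 postpartum (SD, n = 11), a change of -0.06 (SE 0.15, limma adjusted p = 0.861), with 5 cows higher and 6 lower. The 95% interval of the fold, 0.76 to 1.199, leaves room for a modest change in either direction. The lowest value of all 22 arrays, 169, was the postpartum array of cow 384, down from 397. Without cow 384 the sign turned (0.05, limma adjusted p = 0.852), and without cows 384 and 387 the change was 0.06 (limma adjusted p = 0.831). Cow 386 had the largest increase, from 287 to 513. The mean change was -0.13 (SD 0.46, n = 5) in array set 1 and -0.01 (SD 0.68, n = 6) in array set 2.

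CISH, the second STAT5-induced inhibitor, was likewise centred on the same level. Signals ran from 100.03 through 141 to 202 prepartum and from 109 through 142 to 406 postpartum. The level was 7.24 ± 0.36 prepartum and 7.32 ± 0.49 postpartum (SD, n = 11), a change of 0.08 (SE 0.18, limma adjusted p = 0.851), with 6 cows higher and 5 lower. The fold was 1.06, with a 95% interval from 0.81 to 1.39. As with STAT5B, the postpartum array of cow 384 stood alone, at 406 after 107 prepartum, and no other array exceeded 202. Without cow 384 the sign turned (-0.10, limma adjusted p = 0.655), and without cows 384 and 387 the change was -0.14 (SE 0.12, limma adjusted p = 0.502). The prepartum array labelled cow 387, with muscle markers nearly as high, had a CISH signal of 121, inside the range of the other cows. With the muscle score as a covariate the CISH change was 0.06 (SE 0.17, limma adjusted p = 0.885). What set the CISH value of cow 384 apart was not tested.

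CISH was the member whose change differed most between the array sets. It was lower postpartum in 4 of 5 cows of set 1, with a mean of -0.33 (SD 0.28, n = 5). In set 2 it was higher in 5 of 6 cows and averaged 0.42 (SD 0.77, n = 6). The difference of 0.75 (SE 0.32) did not pass limma's interaction test over all kept probe sets (adjusted p = 0.997, unadjusted p = 0.0355), where 0% passed and 3.58% had an unadjusted p under 0.05. The exact two-sided permutation test over the 462 divisions of the cows gave p = 0.039 for CISH (adjusted p = 0.156 over the 4 members). Without cow 384 the difference was 0.47 (exact permutation p = 0.0714 over 252 divisions). For GHR, STAT5B and SOCS2 the exact p between sets was 0.976, 0.771 and 0.736.

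SOCS3, an inhibitor induced by inflammatory cytokines as well as by growth hormone, was dim on every array. The brighter of its 2 probe sets had signals of 3.35, 11.4 and 21.7 prepartum and 3.51, 12.6 and 30.0 postpartum, and the other had signals from 0.51 to 13.6. The changes were 0.08 and 0.15 in the fit with no filter (limma adjusted p = 0.854 and 0.694). At these signals a difference of SOCS3 between the groups was not detectable.

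**Figure D3:**
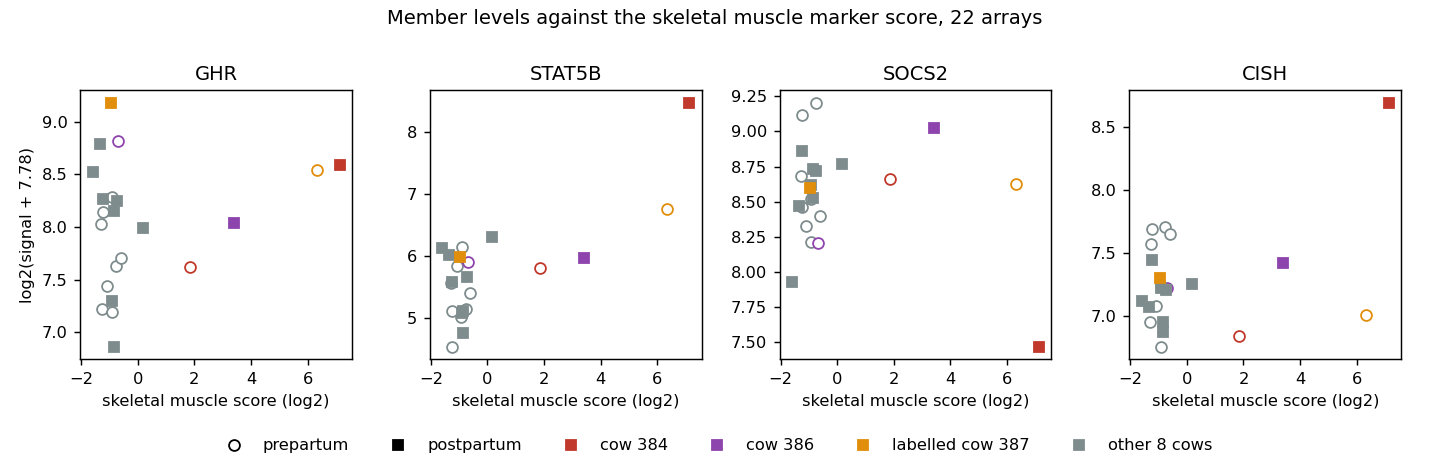
Level of GHR, STAT5B, SOCS2 and CISH, as log2(signal + 7.78), against the skeletal muscle score of the same array (median log2 level of 15 muscle markers relative to their means), for 22 arrays. The postpartum array of cow 384 (red square) has the highest score, 7.13, together with the highest STAT5B and CISH and the lowest SOCS2, and the prepartum array labelled cow 387 (open orange circle) shares the high score and a raised STAT5B but lies among the others for SOCS2 and CISH.

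Whether receptor and downstream genes moved together was examined cow by cow. The change of GHR was set against that of STAT5B, SOCS2 and CISH over 11 cows. Pearson's r was 0.14 for STAT5B (permutation p = 0.789, Spearman's rho 0.10, permutation p = 0.775), -0.24 for SOCS2 (permutation p = 0.481, rho -0.33, permutation p = 0.328) and 0.32 for CISH (permutation p = 0.305, rho 0.26, permutation p = 0.435). Over the 7 relations computed, adjusted p was at least 0.744 for every Pearson r among these 3. Without the 2 cows farthest from the median change of GHR, 360 and 386, r was 0.28, -0.45 and 0.14. Without cows 384 and 387, r was -0.22, -0.06 and 0.09. No relation between the change of the receptor and that of its inhibitors was detectable with 11 cows.

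The genes most alike to each member were ranked over 22 arrays after subtraction of group means, by Pearson's r among 6983 other genes. These arrays share cows and, in some, high muscle markers, so the values are descriptive. The 18 arrays without cows 384 and 387 still hold the postpartum array of cow 386, with a muscle score of 3.41. CUL5, the cullin of the SOCS ubiquitin ligase, was the gene most like GHR (r = 0.80, and 0.83 over the 18 arrays without cows 384 and 387, where it also ranked first). BRWD1 (0.75, and 0.82 over 18) and SNX6, a sorting nexin (0.74, and 0.65), followed. For STAT5B they were CCNY, a cyclin (0.92, and 0.91 over 18), the glycolytic enzyme TPI1 (0.92, and 0.83) and UBE2B (0.92, and 0.74). For SOCS2 they were the RNA helicase DDX17 (0.84, and 0.74 over 18), the chromatin remodeller CHD3 (0.82, and 0.70) and CTSV (0.81, and 0.67). For CISH they were STRN3 (0.82, and 0.54 over 18), TRIM13 (0.79, and 0.70) and OTUD4 (0.76, and 0.43). Over the 18 arrays CCNY still ranked first for STAT5B, while none of the 3 genes named for SOCS2 and none of those for CISH remained among the top 3.

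The rest of the pathway was read from 6 lists with 82 genes, of which 50 had a probe set and 45 passed the filter. Of these 45, 1 rose and 1 fell (4.44%), against 3.71% of 6984 genes (1.55% higher, 2.16% lower), and their median change was 0.03, against 0.01 for all genes. Both calls were receptors. Without cows 384 and 387 the same 2 genes passed, against 8.2% of all genes.

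Among 5 kept cytokine receptors that signal wholly or partly through JAK2, PRLR and IL6R passed the test and OSMR, IFNGR2 and CSF2RB did not. PRLR, the prolactin receptor and the closest relative of GHR in the list, had signals of 211, 340 and 491 prepartum and 46.1, 100.4 and 281 postpartum, so that the groups overlapped in part. It fell by 1.52 on the log2 scale (SE 0.25, limma adjusted p = 0.00495, 11 of 11 cows lower). The change of GHR exceeded that of PRLR in 10 of 11 cows, by 1.82 (SD 1.31, n = 11), and in 8 of 9 cows without 384 and 387 (1.53, SD 1.20, n = 9). PRLR and IL6R were set against GHR because they were the 2 genes called. These differences are therefore a description, and no p-value is given for them.

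IL6R, the ligand-binding chain of the interleukin 6 receptor, which signals through the partner chain IL6ST, rose 1.80-fold and was higher postpartum in 11 of 11 cows. Its signals were 125, 199 and 419 prepartum and 253, 375 and 527 postpartum, so that the groups overlapped only in part. The change was 0.85 (SE 0.14, limma adjusted p = 0.00495), and 0.84 (limma adjusted p = 0.00621) without cows 384 and 387. A second, dimmer IL6R probe set rose by 0.77 (SE 0.14, limma adjusted p = 0.00984), also in 11 of 11 cows. The change of GHR was smaller than that of IL6R in 7 of 11 cows, with a mean difference of -0.55 (SD 0.78, n = 11). All 12 kept macrophage markers had positive changes, none past the test, and their score changed by 0.35 (SD 0.64, n = 11), higher in 7 of 11 cows. All 6 kept neutrophil markers had positive mean changes too, with none called, but the neutrophil score was higher in only 4 of 11 cows. Of 11 endothelial markers 2 rose past the test, VWF (0.66, limma adjusted p = 0.00392) and TEK (0.61, limma adjusted p = 0.013). In that list 7 markers had positive and 4 negative changes, and the endothelial score was higher in 9 of 11 cows. Of 14 adipocyte markers 3 fell past the test, the hormone gene LEP (-1.78, limma adjusted p = 0.0268), the lipase LPL (-1.18, limma adjusted p = 0.0323) and GPD1 (-0.93, limma adjusted p = 0.0451). Among the 14, 5 had positive and 9 negative changes. Of 12 fibroblast and progenitor markers, 3 with positive and 9 with negative changes, PI16 rose (1.44, limma adjusted p = 0.012) and MFAP5 fell (-0.45, limma adjusted p = 0.0296). Beside these marker counts, 1.55% of all 6984 genes rose and 2.16% fell past the test. The part of these marker changes in those of PRLR and IL6R was not tested. Without the 4 cows whose prepartum arrays had the highest epidermis scores (330, 331, 341 and 382), neither receptor passed (limma adjusted p = 0.221 for PRLR and 0.0971 for IL6R), with changes of -1.34 and 0.70. Only 6 of all 14410 kept probe sets passed in that fit. The epidermis score rests on only 2 kept genes of 14, which differed: KRT10 had a change of -1.77 (limma adjusted p = 0.102) and KRT5 of -0.02 (limma adjusted p = 0.959). In array set 1 alone IL6R had a limma adjusted p of 0.0583 and PRLR of 0.038, and in array set 2 alone they had 0.205 and 0.247, with every direction kept. Of all kept probe sets, 69 passed in array set 1 alone and 0 in array set 2 alone.

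Other receptors had smaller changes. IFNGR2, a chain of the interferon gamma receptor, had a change of 0.27 (limma adjusted p = 0.134) and was higher in 9 of 11 cows, OSMR 0.24 (limma adjusted p = 0.257) and CSF2RB -0.16 (limma adjusted p = 0.614). LEPR and EPOR lay below the filter.

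**Figure D4:**
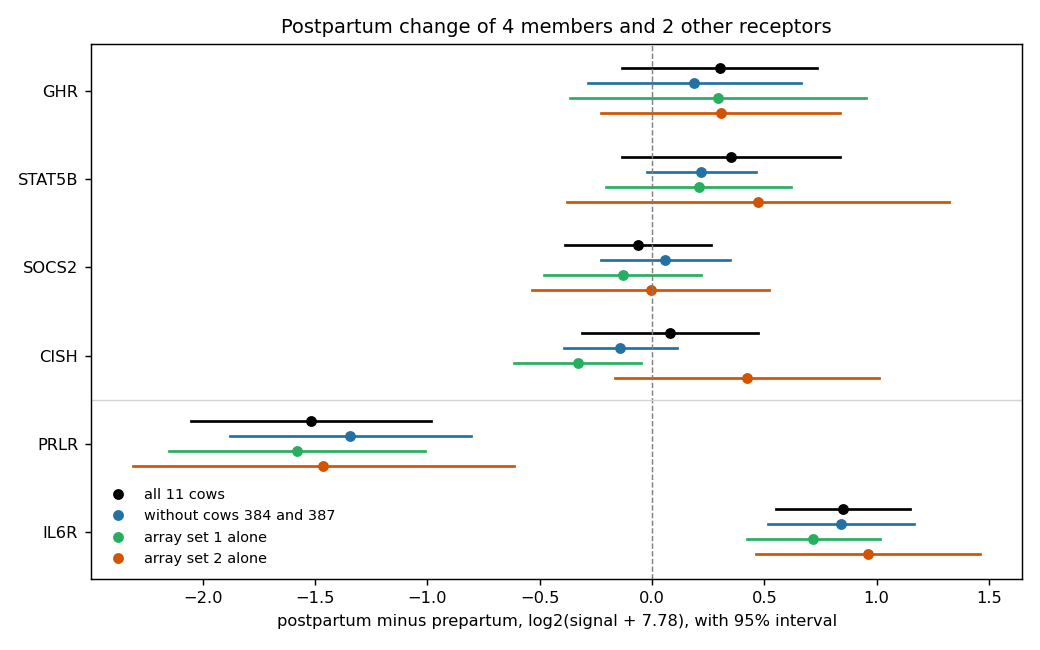
Postpartum minus prepartum change on the log2(signal + 7.78) scale, with its 95% interval, for the 4 kept members and for PRLR and IL6R, in all 11 cows, without cows 384 and 387 and in each array set. Intervals of the 4 members span 0 in every setting shown except for CISH in array set 1 alone (-0.33), while PRLR lies below 0 (-1.52) and IL6R above it (0.85) in each setting shown.

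In the other lists no gene passed limma's test. Of 5 further JAK and STAT genes, 2 had positive changes and the median was -0.02. JAK1, the kinase of interferon and interleukin 6 receptors, had a change of 0.06 (limma adjusted p = 0.657), the highest, and STAT2 -0.13 (limma adjusted p = 0.58), the lowest. STAT3, the main transcription factor of IL6 signalling, stood at 0.03 (limma adjusted p = 0.911).

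Of 5 genes of the SOCS family and its ubiquitin ligase, 4 had positive changes, with a median of 0.08. The ring finger subunit RNF7 had the lowest change (-0.22, limma adjusted p = 0.253, 9 of 11 cows lower) and the cullin CUL2 the highest change (0.14, limma adjusted p = 0.607). CUL5 changed by 0.07 (SE 0.14, limma adjusted p = 0.821).

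Of 13 adaptors and kinases near the receptor, 6 had positive changes. An unadjusted limma p under 0.05 was found for 1 of them, against 19.8% of all kept probe sets. That gene was PIK3CA, the catalytic subunit of phosphoinositide 3-kinase, with the highest change (0.23, limma adjusted p = 0.207, 9 of 11 cows higher). AKT2 had the lowest change (-0.13, limma adjusted p = 0.647). PIK3R1, the regulatory subunit through which growth hormone is known to blunt insulin signalling in fat, had a change of -0.12 (limma adjusted p = 0.705), and SH2B1, an adaptor of JAK2, of 0.16 (limma adjusted p = 0.35).

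Of 9 phosphatases, PIAS proteins and turnover genes, 6 had positive changes. Only 1, PIAS1, had an unadjusted limma p under 0.05 (0.17, limma adjusted p = 0.2), against 19.8% of all kept probe sets. PTPRC, a pan-leukocyte phosphatase, had the highest change (0.33, limma adjusted p = 0.522) and the stress phosphatase DUSP1 the lowest change (-0.29, limma adjusted p = 0.34). PTPN6, a phosphatase that acts on JAK2 and is abundant in leukocytes, had a change of 0.30 (limma adjusted p = 0.344).

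Of 8 genes known as targets of STAT5 or growth hormone, 4 had positive and 4 negative changes, with a median of 0.00. An unadjusted limma p under 0.05 was found for 3 of them, where 19.8% of all kept probe sets had one. IGF1, the growth factor that mediates much of the hormone's action, had the lowest change (-0.27, limma adjusted p = 0.183, 9 of 11 cows lower). CDKN1A, a cell cycle inhibitor, had the highest change (0.42, limma adjusted p = 0.159, 9 of 11 cows higher), ahead of the kinase PIM1 (0.38, limma adjusted p = 0.196, 8 of 11 cows higher). IGFBP3, the main carrier of IGF1, had a change of -0.24 (limma adjusted p = 0.595).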

How the data were processed

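Total RNA of each sample was hybridised to an Affymetrix bovine array. The authors summarised probe sets with MAS5 (per the submitters' processing notes). Which version, settings or build they used is not given in the sources used here. Linear intensities were deposited, with a trimmed mean of 125 (2% removed at each end) on all 22 arrays. Leaving out 112 controls left 24016 probe sets, of which 13292 had 1 symbol (13263 updated through Entrez identifiers to the ARS-UCD2.0 RefSeq table), 86 several and 10638 none.

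Values were taken as log2(signal + 7.78), with 7.78 taken as the 20th percentile of signal (median of 22 arrays); this understates changes of dim genes. The test was limma 3.58.1 (R 4.3.3) with trend in intensity and a fixed effect per cow, adjusted by Benjamini-Hochberg over 14410 probe sets and tested on simulated data. Cow numbers pair the samples, since the series design describes repeated sampling of the same animals; same-cow values, less group means, correlated at 0.18 to 0.43 for 10 cows and -0.09 for the pair labelled 387, with 7 of 11 pairs matching best. Where a gene had several kept probe sets, the one of highest mean stood for it. Intervals are unadjusted. Correlations used 100000 permutations (SciPy 1.17.1).

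Named genes were every member probe set, from each pathway list the calls or else the largest rise and fall, and the 3 genes most alike to each member. The genes beyond that rule were STAT3, OSMR, IFNGR2, CSF2RB, PIK3R1, SH2B1, PTPN6, PIAS1, PIM1, IGFBP3, LEPR, EPOR and the marker genes (ADIPOQ, FABP4, ACTA1, CKM, MYH7, KRT5, KRT10 and the markers called), named after their values were seen. Members, lists and tests were chosen with earlier results of these data known. Alternatives varied block, normalization, pseudocount, filter, variance model, weights, array set and cows.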

Additional observations from a re-analysis of the deposited data

Results flagged for a closer look

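Levels and changes of the 4 kept members were examined for single stray arrays within each array set, which hold 5 and 6 cows. Of 24 groups of values examined, 4 had a cow whose gap to its neighbour was large against the range of the group, and chance alone marks about 1 in 20. All 4 concern cow 384 in array set 2. Its postpartum level was 7.46 for SOCS2, below the next lowest at 8.47. Its postpartum level was 8.69 for CISH, above the next highest at 7.42, and 8.48 for STAT5B, above the next highest at 6.31. The STAT5B change of cow 384 was 2.68, against 0.46 for the next cow. The same array had the lowest adipocyte marker score (-1.55) and the highest skeletal muscle score (7.13). With the muscle score as a covariate the changes were 0.30 for STAT5B, 0.06 for CISH, -0.06 for SOCS2 and 0.31 for GHR. The parts of the adipocyte score and of the control ratios in the member values were not tested. For GHR no array was marked.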

How the results depend on the processing

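In 28 of 28 alternatives, limma or the ordinary paired test, no member probe set was called, with at most 1 at an unadjusted p under 0.05. This says little about an absence of change, since the main fit tested only 4 members and called 3.43% of all kept probe sets. Some alternatives called few probe sets of any gene, as the next paragraph shows. GHR and STAT5B kept a positive change in each alternative run (0.19 to 0.46 in 27 for GHR, 0.12 to 0.47 in 26 for STAT5B, which the 60th percentile filter removed). SOCS2 turned to 0.051 with array weights and 0.060 without cows 384 and 387, and ran from -0.15 to 0.051 without single cows. CISH turned to -0.079 with array weights, -0.33 in array set 1 alone, -0.14 without cows 384 and 387 and -0.18 without cows 384, 386 and 387, and ran from -0.10 to 0.16 without single cows. The r of the GHR and STAT5B changes turned to -0.22 without cows 384 and 387. The cause was not tested.

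Over all probe sets 494 passed, against 338 with no replicate block and 291 by the ordinary paired test. Array weights gave 1076, and a threshold of 0.10 gave 1048. Omission of cows 384 and 387 gave 1070, of 386 as well 950, and of the 4 cows 330, 331, 341 and 382 it gave 6. Set 1 by itself gave 69 and set 2 by itself 0 with limma (1526 unadjusted below 0.05). Leaving out single cows gave 242 to 969, with shifts over 1.5 times without cows 330 (280), 341 (263), 346 (247), 347 (314), 360 (265), 382 (242) and 384 (969). Without the replicate block the number of members called was 0 as well, and no call of PRLR or IL6R changed. Of the pathway lists 2 genes passed, against 1 in set 1, 0 in set 2 and 0 when cows 330, 331, 341 and 382 were left out (limma; 3 unadjusted below 0.05 in each of these). Omitting cows 384 and 387, omitting 3 or 4 cows and the muscle covariate were chosen after the data were seen.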

Other observations

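Whether cows kept their order across calving was examined for each kept member. Prepartum and postpartum levels of GHR correlated at r = 0.14 over 11 cows (permutation p = 0.682, rho 0.03, permutation p = 0.945), at -0.10 without the 2 cows farthest from the prepartum median, 386 and 387, and at -0.05 without cows 384 and 387. For SOCS2 r was -0.03 (permutation p = 0.832, rho -0.28, permutation p = 0.402) and for CISH -0.34 (permutation p = 0.319, rho -0.20, permutation p = 0.555), with r of -0.44 and -0.35 without cows 338 and 360. STAT5B had r = 0.50 (permutation p = 0.137) and rho 0.76 (permutation p = 0.00846, adjusted p = 0.0592 over 7 relations), r = 0.62 without cows 360 and 387, and r = 0.87 (rho 0.90) without cows 384 and 387. None of the 4 relations passed the correction, and they were chosen after the values had been seen.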
